A study of Homo sapiens with 4 samples.

Results

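The nuclear-encoded subunits of mitochondrial respiratory complexes I to IV were followed in Ca9-22 cells after knockdown of KPNA4. The members were 55 genes, 34 of complex I, 4 of complex II, 7 of complex III and 10 of complex IV. They were found on the array as all gene probes whose transcript accession belongs to one of these genes, which gave 69 of 34127 probes and 55 of 27708 genes. Ca9-22 is an established cell line from a gingival squamous cell carcinoma, and KPNA4 is an importin alpha that carries proteins with a nuclear localization signal into the nucleus. The control group held 2 cultures of negative control cells and the KPNA4 knockdown group held 2 cultures, which the series describes as biological replicates. The labels place the measurement 3 days after transfection of siRNA, whereas the study's text speaks of shRNA for its knockdown lines, so the kind of silencing agent on these arrays was not settled here. All cells were from 1 line in culture medium with serum, and nothing more about clones or passages was used. Labelled copies of the RNA (cRNA) were hybridised to whole-genome arrays of 1 color.

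The respiratory chain passes electrons from NADH and succinate to oxygen in the inner mitochondrial membrane. Complex I (NADH dehydrogenase) and complex II (succinate dehydrogenase) feed electrons to ubiquinone, complex III (the cytochrome bc1 complex) hands them to cytochrome c, and complex IV (cytochrome c oxidase) gives them to oxygen. Complexes I, III and IV also pump protons, and all of complex II and most subunits of the others are encoded in the nucleus, with the remaining core subunits made from mitochondrial DNA. The mitochondrially encoded subunits were not analysed here.

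Between 70.2% and 71.1% of the probes were well above background on each array, and no gene spot was saturated. Every member was well above background on all 4 arrays. All values below are log2 signal relative to the 75th percentile of the same array, and fold changes are KPNA4 knockdown minus control with a moderated standard error (SE) from limma. Adjusted p-values are from limma with Benjamini-Hochberg adjustment over the 19552 genes tested, and a gene was called where this was below 0.05. KPNA4 itself read 4.02 and 4.03 in control and 2.36 and 2.05 in knockdown. It fell by 1.82 (SE 0.119, adjusted p = 0.00183), a 3.53-fold lower level. The epithelial identity of the cells was checked on 10 squamous keratinocyte markers, and all 10 were tested and gave a summed signal of 319 to 320 times the 75th percentile in control and 273 to 283 times in knockdown. The sum hid changes in both directions, since 5 of the 10 were called higher (KRT14, KRT17, CDH1, KRT5 and DSP, with changes of 0.71 to 1.39) and 3 lower (ITGB4, EPCAM and SFN, with changes of -1.15 to -0.28). The other lists gave smaller sums: 5 of 7 fibroblast markers summed to 0.141 to 0.146 in control and 0.329 to 0.344 in knockdown, with COL3A1 and PDGFRA not well above background, 2 of 4 endothelial markers to 0.0847 to 0.0918 and 0.0608 to 0.0643, with PECAM1 and KDR not well above background, and the 4 leukocyte markers tested to 4.63 to 4.67 and 6.03 to 6.36. Of the leukocyte markers tested, 1 was called higher and 3 lower (median -0.96). The higher one, CD14, read 2.05 and 2.03 in control and 2.62 and 2.54 in knockdown. CD68 read -1.20 and -0.91 in control and -2.51 and -2.34 in knockdown, and CD3E was dimmer still. Of the fibroblast markers 3 were higher and 1, LUM, lower (median 0.56), and LUM was well above background on 2 arrays only. Both endothelial markers were lower. The part of these markers in the values of the subunits was not tested. In bulk RNA, a smaller number of cells and less RNA per cell cannot be told apart. The control arrays lay at positions 1 and 2 of the slide and the knockdown arrays at positions 3 and 4, so position and group cannot be told apart.

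Over all 4 complexes, 4 subunits were called higher and 17 lower after KPNA4 knockdown, and 34 were not called. Of all genes tested, 20.3% were called higher and 29.5% lower, against 7.27% and 30.9% of the subunits. The share of lower calls among the subunits was thus near that of all genes, and the share of higher calls was smaller. No subunit changed 2-fold, and the fold changes ran from -0.72 for COX8A to 0.32 for NDUFS6. Their median was -0.12, beside -0.10 for all genes tested, and their standard deviation over genes was 0.23, beside 0.72. All 55 subunits lay among the 3911 brightest genes, of which 505 were called higher and 1360 lower. Within the brightness range of the members, 3687 genes had a median of -0.13 and a standard deviation of 0.38, and 13.2% of them were called higher and 33.9% lower. Both knockdown arrays lay below both control arrays for 35 subunits and above them for 11, and the groups overlapped for 9. Over all genes tested, 48.1% lay below and 31.7% above in this way. The 2 control arrays differed by a median of 0.05 over the subunits and the 2 knockdown arrays by 0.06, while a control and a knockdown array differed by 0.18 to 0.20. With 1 array left out, a group holds a single array that is assumed to vary like the pair of the other group, and the counts of lower calls shrank. There were 4 higher and 10 lower without the first control array, 0 and 13 without the second, 0 and 6 without the first knockdown array and 0 and 3 without the second. The corresponding higher counts at an unadjusted limma p below 0.05 were 4 without the second control array, 0 without the first knockdown array and 2 without the second. COX8A, NDUFS4 and NDUFB3 were called lower in all 4 of these fits, with adjusted p of at most 0.0242, 0.0389 and 0.0421. UQCRH and COX5B were called in 3 of the 4, and the others in at most 2, among them SDHA, COX4I1 and NDUFS6 in 1 each and COX5A in 0.

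**Figure D1:**
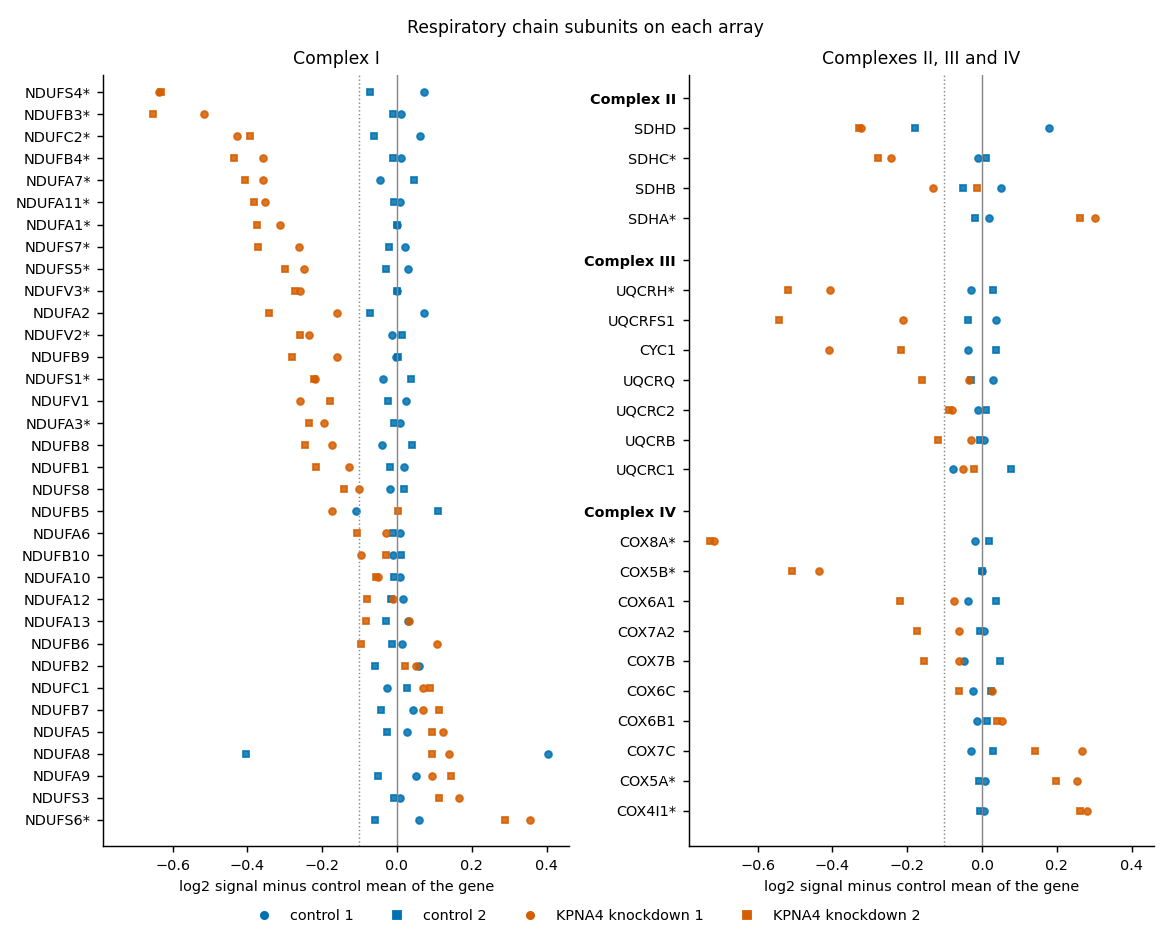
Each row is 1 subunit, and points give its log2 signal on each of the 4 arrays minus its mean on the 2 control arrays. Blue marks control and orange KPNA4 knockdown, an asterisk marks an adjusted p below 0.05, and the dotted line is the median fold change of all genes (-0.10). On this scale most orange points of complex I lie left of 0, while SDHA, COX4I1 and COX5A lie right of it on both knockdown arrays.

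Complex I, with 34 of the 55 subunits, is described on the 75th percentile scale. Of the 34, 13 were called lower (38.2%), 1 higher (2.94%) and 20 were not called, with a median of -0.19, beside 29.5% lower and 20.3% higher over all genes and 33.9% and 13.2% over genes of like brightness. Its largest decrease was in NDUFS4, an accessory subunit of the arm that takes up electrons from NADH, which is needed for a stable complex. It read 3.61 and 3.46 in control and 2.90 and 2.90 in knockdown. It fell by 0.63 (SE 0.0746, adjusted p = 0.00604). NDUFB3, an accessory subunit of the membrane arm, read 5.18 and 5.16 in control and 4.66 and 4.52 in knockdown. It fell by 0.58 (SE 0.0734, adjusted p = 0.00694). In both genes the groups of arrays were separated by a gap wider than the spread within either group.

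NDUFC2, NDUFB4 and NDUFA7 followed, all accessory subunits. NDUFC2 read 4.56 and 4.44 in control and 4.07 and 4.10 in knockdown, a change of -0.41 (SE 0.071, adjusted p = 0.0144). NDUFB4 read 5.89 and 5.86 in control and 5.52 and 5.44 in knockdown, a change of -0.40 (SE 0.062, adjusted p = 0.0114). NDUFA7 read 4.02 and 4.11 in control and 3.71 and 3.66 in knockdown, a change of -0.38 (SE 0.0659, adjusted p = 0.0143). The knockdown arrays were the low ones in each of the 3 genes. A further 3 accessory subunits of the NDUFA group, NDUFA11, NDUFA1 and NDUFA3, were called lower with changes of -0.37, -0.34 and -0.22, and so were NDUFS5 (-0.27) and NDUFV3 (-0.26).

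NDUFS6 was the subunit of complex I called higher. It is a zinc-binding accessory subunit of the same arm as NDUFS4. It read 4.55 and 4.43 in control and 4.85 and 4.78 in knockdown, a rise of 0.32 (SE 0.0728, adjusted p = 0.0274). NDUFS4 and NDUFS6 thus moved in opposite directions, and their fold changes differed by 0.96. This pair was picked by its values, as the lowest and highest fold change of complex I, so a wide difference follows from the choice. The difference is not altered by a constant taken from each array.

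The 6 core subunits among the members bind the flavin and the iron-sulfur clusters that carry the electrons or lie beside them. Of these, 3 were called lower. NDUFS7, which holds the cluster nearest to ubiquinone, read 3.25 and 3.21 in control and 2.97 and 2.86 in knockdown (change -0.32, SE 0.0683, adjusted p = 0.0247). NDUFV2 changed by -0.25 (adjusted p = 0.028) and NDUFS1 by -0.22 (adjusted p = 0.0442). NDUFV1, which binds NADH and the flavin, lay just outside the threshold at -0.22 (adjusted p = 0.0517), and NDUFS8 and NDUFS3 were not called at -0.12 and 0.14. Of the 28 accessory subunits, 10 were called lower (35.7%) and 1 higher, beside 50% lower of the core subunits. By name group, 4 of 12 NDUFA (33.3%), 2 of 10 NDUFB (20%), 1 of 2 NDUFC (50%) and 6 of 10 NDUFS or NDUFV genes (60%) were called lower. Over all genes tested 29.5% were called lower, and over genes of like brightness 33.9%. Differences between these small groups were not tested.

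The other subunits of complex I were not called. NDUFB9, NDUFB8, NDUFB1 and NDUFA2 had changes from -0.25 to -0.17 with adjusted p from 0.06 to 0.1. NDUFB5, NDUFA6, NDUFB10, NDUFA10, NDUFA12 and NDUFA13 lay between -0.08 and -0.02, and NDUFB6, NDUFB2, NDUFC1, NDUFB7, NDUFA5 and NDUFA9 between 0.01 and 0.12. NDUFA8 was the least well measured member. It read 6.10 and 5.30 in control and 5.84 and 5.79 in knockdown, so both knockdown values lay between the control values (change 0.12, SE 0.289, adjusted p = 0.758). Its change was 0.52 without the first control array and -0.29 without the second, so its direction depended on which control array was used.

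Complex II had 1 of its 4 subunits called higher (25%) and 1 lower (25%), beside 20.3% higher and 29.5% lower over all genes tested. SDHA, the flavoprotein that oxidizes succinate, read 4.52 and 4.49 in control and 4.81 and 4.77 in knockdown. It rose by 0.28 (SE 0.0579, adjusted p = 0.0218). SDHB, the iron-sulfur subunit, read 3.52 and 3.42 in control and 3.34 and 3.46 in knockdown, and the groups overlapped (change -0.07, SE 0.077, adjusted p = 0.471). SDHC, a membrane anchor, read 4.17 and 4.19 in control and 3.94 and 3.90 in knockdown on its brightest probe, and this probe fell by 0.26 (SE 0.0569, adjusted p = 0.0251). SDHD, the other membrane anchor, read 2.36 and 2.00 in control and 1.86 and 1.85 in knockdown (change -0.33, SE 0.137, adjusted p = 0.117). The knockdown arrays gave nearly the same value, and the spread came from the control arrays.

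Complex III had 1 lower call (14.3%) and none higher among 7 subunits, beside 29.5% lower and 20.3% higher over all genes tested. At an unadjusted limma p below 0.05 it had 3 lower and 0 higher. UQCRH, the hinge protein beside cytochrome c1, read 6.28 and 6.34 in control and 5.90 and 5.79 in knockdown. It fell by 0.46 (SE 0.0705, adjusted p = 0.0108). CYC1, cytochrome c1 itself, read 4.06 and 4.13 in control and 3.69 and 3.88 in knockdown, and lay just outside the threshold at -0.31 (SE 0.0905, adjusted p = 0.0501). UQCRFS1, the Rieske iron-sulfur protein, read 4.91 and 4.83 in control and 4.66 and 4.33 in knockdown, with a wider gap between the knockdown arrays (change -0.38, SE 0.131, adjusted p = 0.0772). The core proteins UQCRC1 and UQCRC2 and the small subunits UQCRB and UQCRQ had changes between -0.10 and -0.04 and were not called.

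Complex IV had 2 subunits called higher (20%), 2 lower (20%) and 6 not called. Over all genes tested 20.3% were called higher and 29.5% lower. COX8A, a small subunit that spans the membrane, read 6.48 and 6.52 in control and 5.78 and 5.77 in knockdown. It fell by 0.72 (SE 0.0565, adjusted p = 0.00257), a 1.65-fold lower level and the largest change of the 55. COX5B, a zinc-binding subunit on the matrix side, read 4.93 and 4.93 in control and 4.50 and 4.43 in knockdown, and fell by 0.47 (SE 0.0604, adjusted p = 0.00725). COX4I1, the common form of subunit 4, moved the other way. It read 4.86 and 4.85 in control and 5.13 and 5.11 in knockdown, and rose by 0.27 (SE 0.0554, adjusted p = 0.0216). COX5A, which joins COX4I1 early in assembly, read 3.23 and 3.22 in control and 3.48 and 3.42 in knockdown, and rose by 0.23 (SE 0.0585, adjusted p = 0.0383). The fold change of COX8A lay 0.99 below that of COX4I1, and that of COX5B 0.70 below that of COX5A, in pairs chosen after their values were seen. COX7C read 5.79 and 5.85 in control and 6.09 and 5.96 in knockdown and was not called (change 0.20, adjusted p = 0.0838), and COX6A1, COX7A2, COX7B, COX6C and COX6B1 lay between -0.15 and 0.05.

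The 69 probes of the members showed where a gene's value depended on the probe. All 69 were kept, and 8 were called higher and 21 lower in a fit on every probe, beside 20% and 28.3% of the 24200 probes kept. The 10 members with more than 1 probe included 5 whose probes lay on both sides of 0. SDHA was steady, with changes from 0.26 to 0.38 on its 4 probes, of which 3 were called. SDHD fell on 2 further probes, by 0.55 (adjusted p = 0.00564) and 0.57 (adjusted p = 0.00571), beside the uncalled value of its brightest probe. As the mean over its 3 probes SDHD changed by -0.48 and was called lower (adjusted p = 0.014). UQCRH fell on its other probe too, by 0.34 (adjusted p = 0.0392). The second probe of NDUFC2, much dimmer, changed by -0.11 (adjusted p = 0.544), and as the mean over both probes NDUFC2 changed by -0.26 and was not called (adjusted p = 0.058).

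SDHC had called probes in opposite directions. Its 2 dimmer probes changed by 0.47 (adjusted p = 0.0135) and 0.39 (adjusted p = 0.133), against -0.26 for the brightest, and the mean over its probes was 0.20 and not called (adjusted p = 0.0815). The lower call for SDHC therefore rests on 1 of 3 probes. NDUFA12 had a second probe to the same transcript that fell by 0.57 (adjusted p = 0.0224). The probe that stood for the gene changed by -0.05, and their mean was called lower at -0.31 (adjusted p = 0.0448). The second probe was the brighter one in control (3.72 and 3.77 against 3.59 and 3.56) but not on the mean of the 4 arrays. The choice of probe for this gene thus depended on the fall itself. The second probe of UQCRB, designed to another transcript of the gene, read -3.51 and -3.56 in control and -3.16 and -3.14 in knockdown and rose by 0.39 (adjusted p = 0.0106). NDUFA10, NDUFB5 and NDUFB8 had probes on both sides of 0, none of them called. Which transcripts or related sequences each probe binds was not tested.

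**Figure D2:**
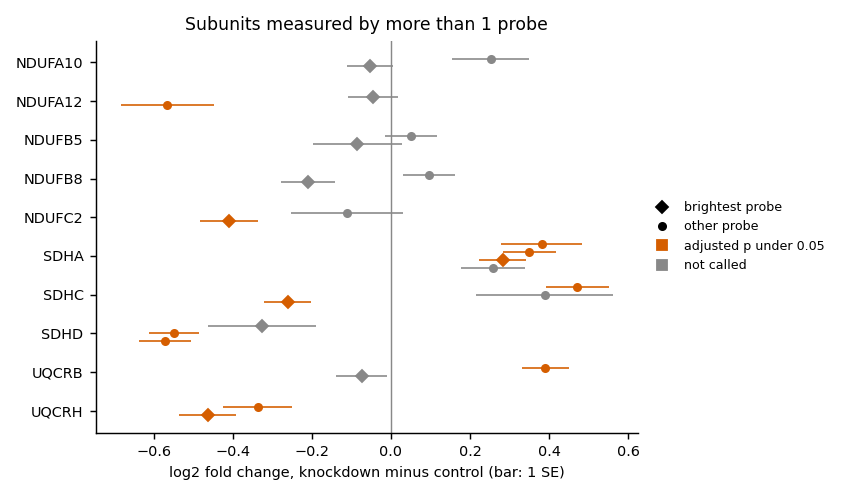
Log2 fold change (knockdown minus control) with 1 SE for each probe of the 10 subunits that have more than 1 probe. Diamonds mark the brightest probe, which stands for the gene, and orange an adjusted p below 0.05 over all probes. The 4 probes of SDHA lie together above 0 and the 3 of SDHD below it, while SDHC has probes on both sides.

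The sign of a change this small depended on how the arrays were brought to a common scale. The 75th percentile of the processed signal was 1466 and 1381 in control and 1938 and 2096 in knockdown. The spike-in control probes, which measure RNA added in fixed amounts, were also brighter in knockdown. Of 10 such probes, 7 were well above background on all arrays, and they differed by a median of 0.36 before scaling, within 0.22 to 0.51. Without scaling the median of all genes was 0.40 and 31 subunits were called higher and 0 lower (0 also at an unadjusted limma p below 0.05). Scaling to the spike-in probes, an alternative chosen after seeing the data, left 1 subunit higher and 3 lower, with medians of 0.02 for the subunits and 0.04 for all genes. These were NDUFS6 (0.46, adjusted p = 0.0352), NDUFB3 (-0.45, adjusted p = 0.0420), NDUFS4 (-0.50, adjusted p = 0.0217) and COX8A (-0.59, adjusted p = 0.00546). A shift taken from each array also alters the spread within a group. SDHA, COX4I1 and COX5A thus had larger rises of 0.42, 0.41 and 0.36 but were not called (adjusted p = 0.0585, 0.0669 and 0.11). Quantile normalization gave 8 higher and 9 lower, median scaling 3 and 20, and subtraction of the median of all genes 7 and 10.

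Across 5 scalings, 16 of the 55 subunits kept their sign. The fold changes of all but quantile normalization differ by a constant for every gene. Leaving out the scaling adds a constant of 0.50 to each. Which signs were kept thus follows from the size and direction of a change and is no measure of how stable a call is. Of the 17 lower calls, COX8A, NDUFS4 and NDUFB3 had fallen by more than this constant, and the other 14 were above 0 without scaling. Under quantile normalization 18 subunits changed sign, of which NDUFS5 had been called. NDUFS6 was the member called under each of the 5. The medians of complexes I, II, III and IV, all below 0 on the 75th percentile scale, were 0.31, 0.34, 0.40 and 0.44 without scaling, -0.05, -0.03, 0.04 and 0.07 under spike-in scaling, and 0.03, -0.04, 0.03 and 0.16 under quantile normalization. No subunit called on the 75th percentile scale was called in the opposite direction under any scaling.

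**Figure D3:**
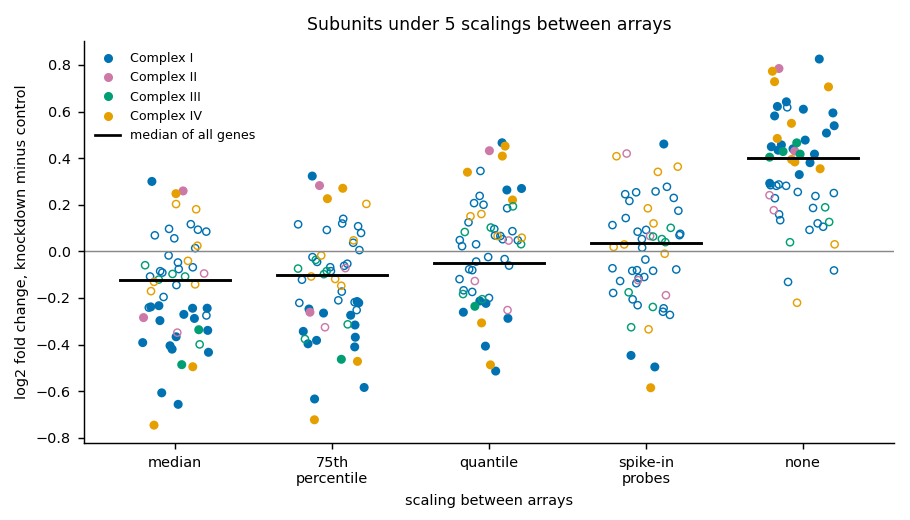
Log2 fold change of the 55 subunits under 5 ways of scaling the arrays, with color by complex, filled points for an adjusted p below 0.05 and open points for the rest. Black bars give the median of all genes, which runs from -0.13 under median scaling to 0.40 without scaling. The fold changes in all columns but the quantile one differ only by a constant, so that the whole set shifts with the black bar. Which points are filled can change besides, since a scaling also alters the spread within a group.

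Further genes of the respiratory system were taken from lists, and their counts stand beside 29.5% lower and 20.3% higher over all genes tested. Among 11 tested subunits of complexes I, III and IV outside the 55, 4 were called lower and 1 higher. UQCR11 fell by 0.56 (adjusted p = 0.00989) and COX6B2 by 0.54 (adjusted p = 0.0188), UQCR10 and COXFA4 (NDUFA4) were also lower, and NDUFB11 rose by 0.30 (adjusted p = 0.0392). Of 18 ATP synthase genes, 9 were called lower (50%) and 2 higher (11.1%). ATP5MC1, a gene for the membrane ring subunit c, changed by -0.75 (adjusted p = 0.00284), and ATP5F1C and ATP5F1A of the F1 sector by 0.35 and 0.33. Of 47 assembly factors, 23 were called lower (48.9%) and 4 higher (8.51%). TMEM126B and NDUFAF3, both needed to build complex I, changed by -0.74 and -0.63, and NUBPL, which delivers iron-sulfur clusters to complex I, by 0.54. COX18, which helps insert a core subunit of complex IV, changed by 0.58 at a very low signal, and by -0.22 under another background correction that leaves out spots with bright surroundings. Among 13 genes for cytochrome c and ubiquinone synthesis, 2 were called lower (15.4%). They were HCCS (-0.28) and cytochrome c itself, CYCS (-0.21, and 0.01 as the mean over its probes). COQ8B was called higher (0.66) at a low signal, -4.89 and -4.62 in control and -4.18 and -4.01 in knockdown. Its change ran from 0.18 to 1.18 over the alternatives. The citric acid cycle was mixed, with 4 of 19 genes called higher (21.1%), among them IDH2 (0.56) and IDH3A (0.50), and 3 lower (15.8%), among them OGDH (-0.43) and IDH3G (-0.37).

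Regulators of mitochondrial biogenesis had 7 of 16 genes called lower and 0 higher by limma (1 higher at an unadjusted p below 0.05), which is 43.8% lower beside 29.5% of all genes and was not tested as a difference. PPARGC1B, a coactivator of respiratory genes, fell by 0.57 (adjusted p = 0.00733), and its partner ESRRA, an orphan nuclear receptor, by 0.50 (adjusted p = 0.00861). POLG and POLG2, subunits of the polymerase that copies mitochondrial DNA, fell by 0.60 and 0.52, and POLRMT and TFB2M, which transcribe it, by 0.59 and 0.36. GABPB1, a subunit of the nuclear respiratory factor that binds ETS motifs, fell by 0.49, while its DNA-binding partner GABPA changed by 0.30 (adjusted p = 0.0589) and was not called. NRF1, YY1 and TFAM were not called either, at -0.11, 0.17 and -0.16. ESRRA, GABPB1 and TFB2M were above 0 without scaling and not called. POLG, POLRMT, PPARGC1B and POLG2 stayed below 0 without scaling but were not called either (limma adjusted p = 0.478, 0.488, 0.649 and 0.912).

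Both ribosome lists held more lower than higher calls, as did all genes tested (29.5% lower and 20.3% higher) and genes of like brightness (33.9% and 13.2%). In the mitochondrial ribosome, which makes the mitochondrially encoded subunits, 32 of 77 genes were called lower (41.6%) and 2 higher, with a median of -0.19, and MRPL58 and MRPL21 fell by 0.75 and 0.60 while MRPL36 and MRPL11 rose by 0.28 and 0.21. In the cytosolic ribosome 48 of 75 were lower (64%) and 1 higher, with a median of -0.35, and RPLP2 and RPL31 fell by 0.78 and 0.74 while RPL22 rose by 0.47. In the proteasome 6 of 31 were lower (19.4%) and 2 higher, with a median of -0.11, and PSMD12 and PSMA5 fell by 0.74 and 0.39 while PSMD7 and PSMA4 rose by 0.53 and 0.46. The median of complex I was -0.19, that of complex II -0.17, that of complex III -0.10 and that of complex IV -0.06, and differences between these lists were not tested.

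**Figure D4:**
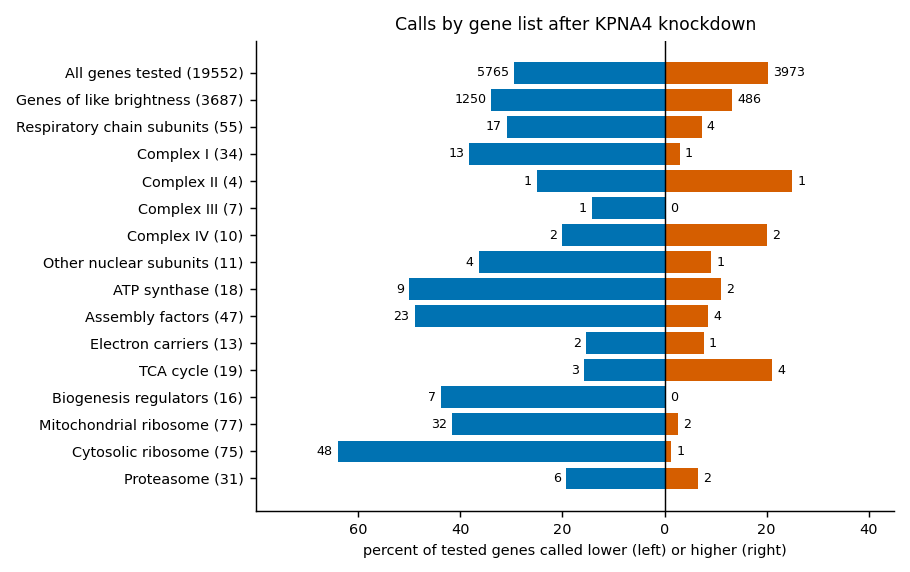
Percent of tested genes called lower (blue, left) or higher (orange, right) at an adjusted p below 0.05, with the number of genes tested in parentheses and the number called beside each bar. Complex I has 13 lower and 1 higher of 34, complex IV 2 and 2 of 10, and the cytosolic ribosome 48 and 1 of 75.

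Promoter sequences show what the members share outside these measurements. RefSeq (GRCh38.p14) windows of 300 bases, from 250 before to 50 after the start site, were found for 47 of the 55 genes and compared with all 35116 windows. The letters AAGATGGC, a core of the motif of YY1 searched on both strands, were in 8 of the 47 (17.0%), beside 2.89% of all windows and 4.76% of those of genes tested here. All 8 matches ran in the direction of the gene and began 10 to 25 bases after the start site. The 8 genes were 6 of complex I, SDHB and UQCRC1. Of these NDUFA3, NDUFA7, NDUFS4 and NDUFS7 were called lower and the others not called, beside 29.5% called lower over all genes tested. A difference was not tested. The 8 matches are shown here as 30 bases, read 5′ to 3′ in the direction of the gene, with the motif in capitals. All lie close behind the start site in the same direction.
NDUFA3, chr19:54102865-54102894, plus strand: ccgcggagacaAAGATGGCtgcgagtaagt
NDUFA6, chr22:42090729-42090758, minus strand: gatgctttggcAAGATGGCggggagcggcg
NDUFA7, chr19:8321343-8321372, minus strand: atcgcggacggAAGATGGCgtccgccaccc
NDUFA9, chr12:4649113-4649142, plus strand: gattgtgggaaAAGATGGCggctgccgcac
NDUFS4, chr5:53560649-53560678, plus strand: ttgcctgcagcAAGATGGCggcggtgtcaa
NDUFS7, chr19:1383913-1383942, plus strand: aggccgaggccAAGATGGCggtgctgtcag
SDHB, chr1:17054004-17054033, minus strand: cgtcaggagccAAGATGGCggcggtggtcg
UQCRC1, chr3:48609605-48609634, minus strand: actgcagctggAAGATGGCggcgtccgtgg

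The letters CCGGAAG or their reverse complement, a motif of ETS factors such as GABPA, were in 14 of the 47 windows (29.8%), beside 10.3% of all and 17.5% of those of genes tested. The 16 matches began between 157 bases before and 2 bases after the start site. Of these 14 genes, 1 was called higher (COX4I1), 5 lower and 8 were not called. Over all genes tested 20.3% were called higher and 29.5% lower, and a difference was not tested. The called genes with a match are shown in the same form, with COX5B given for each of its 2 matches.
NDUFA1, chrX:119871773-119871802, plus strand: attccgtcgcttCTTCCGGagccgtacgtg
NDUFS1, chr2:206159584-206159613, minus strand: aggctggggccaCTTCCGGcggaactgcgg
UQCRH, chr1:46303640-46303669, plus strand: gagtgtgccgcaCTTCCGGccagatcgccg
COX8A, chr11:63974590-63974619, plus strand: ccagctccagaaCTTCCGGccagcgcagcc
COX4I1, chr16:85799685-85799714, plus strand: cggccttgctctCTTCCGGtcgcgggacac
COX5B, chr2:97646013-97646042, plus strand: agaagcccgcccCCGGAAGtccctcctgtc
COX5B, chr2:97646045-97646074, plus strand: tgcagcttgttcCCGGAAGttttgctgcta

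The NRF1 motif, GCGCAT followed directly by GCGC, was in 3 of the 47 windows (6.38%), in 1.24% of all and in 2.13% of those of genes tested, and the 3 genes were NDUFA8, NDUFB4 and SDHD. The SP1 motif GGGGCGGGG was in 7 of the 47 (14.9%), in 15.7% of all and in 26.1% of those of genes tested. CCGGAAG and AAGATGGC can share the letters AAG where one runs into the other, and AAGATGGC contains ATG, the letters of a start codon. A match is a description of these windows and not of binding.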

How the data were processed

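Labelled cRNA made from the RNA of 4 Ca9-22 cultures, 2 control and 2 KPNA4 knockdown by their labels, was hybridised to 1 array each. The authors scanned 1 slide with Agilent Feature Extraction 11.0.1.1 and deposited its output, in which the processed signal is an intensity already corrected for background. Their deposited value table holds 24209 probes as a ratio, found here to be that signal over the array's own 75th percentile. The scanner files refer to an older assembly than the gene table, so no gene coordinates were taken from it. The deposited intensity was turned into log2 values, without control spots and without the 333 to 355 flagged ones of 43118 gene spots. Repeated spots were averaged by probe, and each array was set relative to its 75th percentile. RefSeq accessions (GRCh38.p14) named 25771 of 34127 probes. Probes entered where either group was well above background on its 2 arrays, and the brightest of a gene, by its mean over the 4 arrays, stood for it. The fit was made with limma (version 3.58.1, R version 4.3.3) over 19552 genes, and the code was tested on simulated data. Arrays have no read depth, and 2 per group limit the precision. The p-values measure only the spread between these cultures.

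The members and lists were chosen with earlier results of these data known. All members are accounted for. Genes named by rule were KPNA4, the called members with the largest changes in each complex, all of complex II, members whose probes differ in direction, the 2 largest changes each way in each list and every called regulator. Other members and NRF1, YY1, GABPA and TFAM were named after their values were seen. Alternatives were other scalings, background corrections, filters, probe summaries, variance models, thresholds, a replicate block and leaving out each array. The spike-in scaling and the normexp correction without bright surroundings were added after seeing the data.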

Additional observations from a re-analysis of the deposited data

How the results depend on the processing

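The count of subunits called higher (4) and lower (17) was 3 and 20 under median scaling, 8 and 9 under quantile normalization, 31 and 0 without scaling, 1 and 3 under spike-in scaling, 7 and 10 after subtraction of the median of all genes, 2 and 10 without the filter on dim probes, and 0 and 4 at an adjusted p threshold of 0.01. The median of the subunits was 0.047 under quantile normalization, 0.38 without scaling, 0.019 under spike-in scaling, -0.017 after that subtraction and -0.16 without the first knockdown array. The normexp background correction of all spots gave no limma call for any gene (0 higher and 0 lower for all genes and for subunits, with 752 and 678 genes and 0 and 2 subunits at an unadjusted p below 0.05), a median of -0.33 and KPNA4 at -1.94 (adjusted p = 0.556, range over the alternatives 4.2e-19 to 0.556). On the second knockdown array 12 spots had a local background above 100, and without such spots the subunit counts were 6 and 23 and 8926 genes were lower. With the replicate number as a block the counts were 1 and 11. Same-numbered arrays did not deviate together (correlation -0.034 over genes), which does not settle whether the cultures were paired. Leaving out 1 array, with the lone array of its group assumed to vary like the others, gave 0 to 4 subunits higher and 3 to 13 lower, with medians from -0.16 to -0.10, 2148 to 3596 genes higher and 2522 to 4748 genes lower.

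For all genes (3973 higher and 5765 lower), 11257 were higher and 1049 lower without scaling, 2591 were lower under spike-in scaling, and 2130 were higher and 2340 lower at a threshold of 0.01.

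Of the 55 subunits, 18 changed sign under quantile normalization, 38 without scaling, 15 under spike-in scaling, 12 after subtraction of the median of all genes and 3 as the mean over probes. Of the genes named by rule, the log2 fold changes that changed sign under quantile normalization were SDHB 0.046, NDUFA10 0.066, NDUFB5 0.022 and UQCRB 0.10. Without scaling those of the named genes were NDUFC2 0.092, NDUFB4 0.11, NDUFA7 0.12, SDHB 0.43, SDHC 0.24, SDHD 0.18, UQCRH 0.039, COX5B 0.030, NDUFA10 0.45, NDUFB5 0.42, NDUFB8 0.29, UQCRB 0.43, HCCS 0.22, CYCS 0.29, OGDH 0.075, IDH3G 0.13, PSMA5 0.11, ESRRA 0.0059, GABPB1 0.017 and TFB2M 0.14. Under spike-in scaling these were SDHB 0.065, NDUFA10 0.084, NDUFB5 0.053 and UQCRB 0.063. After subtraction of the median of all genes these were SDHB 0.030, NDUFA10 0.049, NDUFB5 0.017 and UQCRB 0.028. As the mean over probes these were SDHC 0.20, NDUFA10 0.099, UQCRB 0.16 and CYCS 0.012. Under normexp of all spots OGDH was 0.34, and without spots in bright surroundings COX18 was -0.22. NDUFB5 ran from -0.19 to 0.024 as each array was left out, and was 0.0038 without the first knockdown array. The causes were not tested, beyond the shift of all genes that a scaling brings by construction. The members were well above background on all arrays.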

Other observations

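One gene outside the lists was noticed after its values were seen. COXFA4L3 (C15orf48), a paralog of the complex IV subunit COXFA4 (NDUFA4), read -2.61 and -2.60 in control and -1.80 and -1.79 in knockdown. It rose by 0.81 (limma SE 0.0549, adjusted p = 0.00194), while COXFA4 read 5.55 and 5.63 in control and 5.22 and 5.11 in knockdown and fell by 0.42 (adjusted p = 0.0143).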
